A study of Mus musculus and Sus scrofa with 30 samples.

Results

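Expression of 10 transcription factor genes of fat cell formation was followed: 4 of the C/EBP family (Cebpa, Cebpb, Cebpd, Cebpg) and 6 of the KLF family (Klf2, Klf4, Klf5, Klf6, Klf9, Klf15). They were picked by gene name from 2 expression tables and are 10 of 24843 genes in the mouse table and 10 of 34307 in the pig table. All 10 in each table exceeded the filter on low values, a mean of at least 10 over 15 libraries. The study measured RNA in differentiating 3T3-L1 cells, a mouse embryonic fibroblast line that can become fat cells, and in porcine DFAT cells, which are mature fat cells from subcutaneous fat that were returned to a dividing, fibroblast-like state. Each system had 5 groups of 3 libraries, harvested on day 5: vehicle (DMSO), dicoumarol, magnolol, dicoumarol together with magnolol (the combination), and rosiglitazone. Dicoumarol is a vitamin K antagonist, magnolol is a phenolic compound of magnolia bark, and rosiglitazone is a synthetic ligand of PPARγ, the nuclear receptor at the centre of fat cell formation. All groups of a system, vehicle included, received the same induction mix. For 3T3-L1 this was insulin at 0.75 µg/mL, dexamethasone at 75 nM and IBMX at 37.5 µM with 10% serum. For DFAT it was dexamethasone at 0.5 µM, IBMX at 12.5 µM, biotin at 20 µM and pantothenate at 10 µM with 2% serum. The labels state neither a dose for any compound nor whether libraries of a group came from separate cultures or animals, so p-values measure only the spread between these libraries.

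C/EBP proteins are leucine zipper factors that bind DNA as dimers, and KLF proteins are zinc finger factors that bind GC-rich and CACCC sequences. In the textbook order of fat cell formation, hormones in the induction mix raise C/EBPβ and C/EBPδ early, these raise C/EBPα and PPARγ, and the last pair maintain each other and switch on the genes of the mature fat cell. KLF4, KLF5, KLF6, KLF9 and KLF15 are described as promoting this sequence at different steps, KLF4 upstream of C/EBPβ and KLF15 late, whereas KLF2 represses PPARγ. C/EBPγ lacks an activation domain and acts mainly as a dimer partner.

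Upstream sequences are shown for the 5 members whose rosiglitazone calls in 3T3-L1 cells were kept in every alternative that gave a value, 3 that rose (Cebpa, Cebpg, Klf15) and 2 that fell (Klf4, Klf6). They are the 250 bases before the gene start on the gene's strand, from RefSeq on GRCm38.p6, which held 8 of the 10 members. Capitals mark a TATA box (TATAAA) or a GC box (CCGCCC), searched on both strands.
Cebpa: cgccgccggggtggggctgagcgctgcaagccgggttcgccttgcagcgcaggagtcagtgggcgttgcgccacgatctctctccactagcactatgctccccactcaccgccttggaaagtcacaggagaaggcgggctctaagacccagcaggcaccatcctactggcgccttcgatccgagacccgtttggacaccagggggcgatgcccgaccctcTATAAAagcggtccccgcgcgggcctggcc
Cebpg: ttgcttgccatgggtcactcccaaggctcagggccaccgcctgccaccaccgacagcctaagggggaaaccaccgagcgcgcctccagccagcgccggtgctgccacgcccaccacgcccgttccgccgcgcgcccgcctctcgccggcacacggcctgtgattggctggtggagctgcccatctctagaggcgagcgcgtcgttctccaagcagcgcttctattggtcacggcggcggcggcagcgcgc
Klf15: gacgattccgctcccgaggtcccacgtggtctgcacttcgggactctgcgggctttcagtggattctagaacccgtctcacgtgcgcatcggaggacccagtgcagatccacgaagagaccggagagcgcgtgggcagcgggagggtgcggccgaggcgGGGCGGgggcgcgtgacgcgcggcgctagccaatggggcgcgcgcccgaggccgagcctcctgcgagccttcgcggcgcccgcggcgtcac
Klf4: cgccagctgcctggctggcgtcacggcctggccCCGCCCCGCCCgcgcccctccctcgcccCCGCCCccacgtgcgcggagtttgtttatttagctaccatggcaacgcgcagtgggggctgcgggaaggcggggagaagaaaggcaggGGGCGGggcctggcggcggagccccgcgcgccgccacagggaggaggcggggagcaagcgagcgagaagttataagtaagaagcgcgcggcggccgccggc
Klf6: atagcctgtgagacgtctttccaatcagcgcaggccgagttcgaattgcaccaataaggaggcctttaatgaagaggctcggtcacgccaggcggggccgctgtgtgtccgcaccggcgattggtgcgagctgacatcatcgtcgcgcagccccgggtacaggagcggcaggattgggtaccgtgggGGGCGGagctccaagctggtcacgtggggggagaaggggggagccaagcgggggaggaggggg
In order, they lie at chr7:35119043-35119292 (plus strand), chr7:35056567-35056816 (minus strand), chr6:90462326-90462575 (plus strand), chr4:55532476-55532725 (minus strand) and chr13:5861239-5861488 (plus strand). The Cebpa window held a TATA box whose first base is at -30 and no GC box. TATAAA was found in 12.4% of 32851 promoters of this length. The Klf4 window held 4 GC boxes, at -217, -212, -189 and -101, of which the first pair overlap by a base. Klf6 held 1 at -63, Klf15 held 1 at -91, and the Cebpg window held neither motif. Among the members not shown, Cebpb held 5 GC boxes and Klf2 held 2, against 32.7% of all promoters with at least 1. None of the 8 windows held a C/EBP motif written as TTNNGCAA (9.56% of promoters) or a cAMP element written as TGACGTCA (1.55%). The 5 windows shown had a GC content of 64.8% to 74.0%, beside a median of 52.4% over all promoters. A match is a description of the letters and not evidence of binding. The lack of a match to the spelling searched does not show that a site is absent.

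Values are normalized counts, the authors' gene counts divided by a size factor per library. They set libraries of 1 table on 1 scale but are not divided by gene length, so levels of different genes were not compared. Estimated depth was 22.8 to 30.7 M reads for 3T3-L1 libraries and 44.8 to 70.5 M for DFAT libraries. Summed fat cell markers (Adipoq, Fabp4, Plin1, Cidec and Lep) were 2975 to 6859 normalized counts with vehicle and 157792 to 290486 with rosiglitazone in 3T3-L1. In DFAT they were 995 to 1246 with vehicle, 10708 to 11659 with the combination and 19035 to 20560 with rosiglitazone. Summed fibroblast markers were 121219 to 139430 with vehicle and 71211 to 91804 with rosiglitazone in 3T3-L1, where 4 of 5 fell. In DFAT their sum, which was mostly COL1A1, was 1061060 to 1187140 with vehicle, 1808300 to 2096830 with the combination and 843820 to 963943 with rosiglitazone. The members of this list moved apart in DFAT: COL1A1 rose with dicoumarol (log2 fold change against vehicle 0.59, with the test used for the members), magnolol (0.86) and the combination (0.85), whereas PDGFRA fell with those (-0.62, -0.34 and -0.86) and with rosiglitazone (-1.10). DFAT smooth muscle markers, led by ACTA2, summed to 56596 to 72238 with vehicle, 104711 to 118962 with the combination and 79960 to 129917 with rosiglitazone. In 3T3-L1 their sum was 2901 to 5532 with vehicle, 1668 to 2371 with the combination and 1395 to 2565 with rosiglitazone, where Acta2 fell (-1.07 with the combination, -1.15 with rosiglitazone) and Myh11 rose with rosiglitazone (1.39). Macrophage markers summed to 250 to 276 with vehicle and 128 to 176 with rosiglitazone in 3T3-L1, where Cd14 fell (-1.32). Over all DFAT libraries they summed to 670 to 1036, mostly CD14 (619 to 950), with CD68 at 47.9 to 95.3. PTPRC reached 0.98, CSF1R 7.0 and MRC1 10.8 at most in DFAT. Adgre1 was listed for neither system, nor Ptprc for 3T3-L1. The sum of epithelial markers reached 5.96 at most in 3T3-L1 libraries, with a DFAT maximum of 16.7. Endothelial markers summed to at most 34.2 in 3T3-L1, and in DFAT, where PECAM1 and ERG were detected, KDR was at 0 in all 15 libraries. The part of these markers in the results on the members was not tested, and in bulk RNA a larger share of fat cells cannot be told apart from more RNA per cell.

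Cebpa, the factor that maintains the fat cell state with PPARγ, rose in 3T3-L1 cells. Its normalized counts in replicates 1, 2 and 3 were 371, 204 and 443 with vehicle, and 728, 329 and 882 with dicoumarol. With magnolol they were 1079, 559 and 1215, and with the combination 1399, 777 and 1631. With rosiglitazone they were 3494, 2101 and 3248. Replicate 2 was the lowest library of every group, and the group means stood in the order vehicle, dicoumarol, magnolol, combination and rosiglitazone. Cebpa rose 8.90-fold with rosiglitazone (log2 fold change 3.15, SE 0.39, adjusted p = 1.48e-05) and 3.74-fold with the combination (1.90, SE 0.39, adjusted p = 0.00866), with no overlap between libraries in either comparison. Fold changes throughout are on the log2(value + 1) scale, and adjusted p-values come from limma with Benjamini-Hochberg adjustment over all genes tested. The combination call was lost without combination replicate 1 (adjusted p = 0.0584). Magnolol gave 1.48 (SE 0.39, adjusted p = 0.0944; 0.0485 without magnolol replicate 2) and dicoumarol 0.88 (SE 0.39, adjusted p = 1.00).

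Same-numbered 3T3-L1 libraries deviated together in every pair of groups, which the main model ignores. Values from a model blocked on that number are given beside 3T3-L1 member results whose call they changed. They are also given for 3T3-L1 member calls that were lost on leaving out a library. Results for the markers and for the gene lists below come from the main model, without the block. With the block, Cebpa passed against vehicle also with dicoumarol (SE 0.11, adjusted p = 0.000696) and magnolol (SE 0.11, adjusted p = 2.88e-07). The combination call was kept with the block (SE 0.11, adjusted p = 1.08e-08). Neighbours in the order of levels did not pass without the block, for dicoumarol and magnolol (0.60, SE 0.39, adjusted p = 0.992) and for magnolol and the combination (0.42, SE 0.39, adjusted p = 1.00). With the block the first of these passed (adjusted p = 0.0174) and the other did not. The combination exceeded dicoumarol by 1.02 (SE 0.39, adjusted p = 0.431), which passed with the block (SE 0.11, adjusted p = 4.31e-05). Rosiglitazone exceeded the combination by 1.25 (SE 0.39, adjusted p = 0.0369; with the block SE 0.11, adjusted p = 1.31e-06). In the main model that call was lost without combination replicate 1 (0.0619) or 2 (0.142), or rosiglitazone replicate 1 (0.143) or 3 (0.0914). It was also lost with no variance trend (0.0721).

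**Figure D1:**
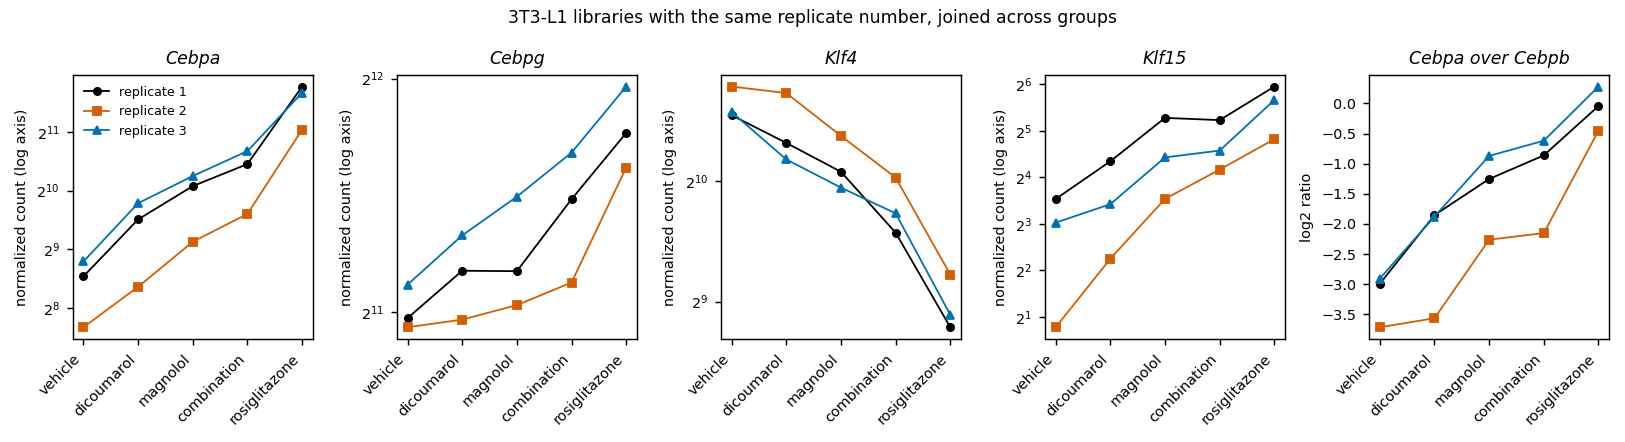
Normalized counts (log axes) of Cebpa, Cebpg, Klf4 and Klf15, and the log2 ratio of Cebpa to Cebpb, in 3T3-L1 libraries by group; each line joins the libraries of 1 replicate number. Replicate 2 is lowest for Cebpa in all 5 groups, while all 3 lines climb from vehicle (204 to 443) to rosiglitazone (2101 to 3494).

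Pig CEBPA rose as well, over a narrower range. Its counts in replicates 1, 2 and 3 were 455, 517 and 401 with vehicle and 378, 366 and 349 with dicoumarol. They were 483, 640 and 488 with magnolol, 674, 798 and 627 with the combination, and 914, 804 and 621 with rosiglitazone. The combination and rosiglitazone libraries lay above every vehicle library, and the dicoumarol libraries lay below them. CEBPA rose 1.69-fold with rosiglitazone (log2 0.76, SE 0.14, adjusted p = 0.00143) and 1.53-fold with the combination (0.61, SE 0.14, adjusted p = 0.00901). The combination result no longer passed on leaving out vehicle replicate 3 (adjusted p = 0.0526) or combination replicate 2 (0.0508). Magnolol (0.22, SE 0.14, adjusted p = 0.461) and dicoumarol (-0.32, SE 0.14, adjusted p = 0.430) did not pass. In the order dicoumarol, vehicle, magnolol, combination and rosiglitazone no 2 neighbours differed by the test, with adjusted p of 0.430, 0.461, 0.434 and 0.541. Further apart, the combination exceeded dicoumarol 1.91-fold (0.93, SE 0.14, adjusted p = 0.000757). Magnolol exceeded dicoumarol by 0.55 (SE 0.14, adjusted p = 0.0687), which passed with quantile normalization (0.0318) and with only these groups in the fit (0.0172). It also passed with the replicate block (SE 0.10, adjusted p = 0.00405).

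C/EBPβ and C/EBPδ are the early activators. Mouse Cebpb spanned 2221 to 3898 over the 15 libraries and Cebpd 2853 to 4868, and without the block neither passed in any of the comparisons with vehicle. Cebpb stood at 2962, 2686 and 3328 with vehicle and 3598, 2872 and 2673 with rosiglitazone, so the groups overlapped (log2 0.02, SE 0.16, adjusted p = 0.933). Cebpd was 3378, 2975 and 4868 with vehicle and 2853, 2869 and 3070 with rosiglitazone (-0.32, SE 0.16, adjusted p = 0.118), where the vehicle libraries spread widely. It passed as lower with the replicate block (SE 0.12, adjusted p = 0.0326) and without vehicle replicate 2 (0.0350).

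CEBPD fell in DFAT cells with 3 of the 4 treatments. The 3 vehicle libraries held 16286, 16762 and 14765 normalized counts, and those with the combination 11674, 12328 and 11066. Magnolol libraries held 13069, 13323 and 12318, rosiglitazone libraries 13961, 13845 and 12933, and dicoumarol libraries 14083, 14224 and 13383. The libraries of every treated group lay below all 3 vehicle libraries. CEBPD fell by 0.45 on the log2 scale with the combination (SE 0.06, adjusted p = 0.000105), by 0.30 with magnolol (SE 0.06, adjusted p = 0.00718) and by 0.23 with rosiglitazone (SE 0.06, adjusted p = 0.0228), while dicoumarol gave -0.20 (SE 0.06, adjusted p = 0.156). The rosiglitazone result did not pass when vehicle replicate 1 (0.0890) or 2 (0.111) was left out, or rosiglitazone replicate 3 (0.109). It was also lost with only the 2 groups in the fit (0.124) and with quantile normalization (0.0559).

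Pig CEBPB stood at 5725, 6458 and 5240 with vehicle, 4640, 5222 and 4428 with the combination, and 6833, 6427 and 5921 with rosiglitazone. The combination libraries were below all vehicle and all rosiglitazone libraries. Dicoumarol libraries held 4352 to 5128, also below all vehicle libraries, and magnolol libraries 4628 to 5250. Their log2 changes of -0.29 (adjusted p = 0.125) and -0.24 (adjusted p = 0.144) did not pass. The combination less dicoumarol gave 0.0045 for CEBPB. CEBPB fell by 0.28 with the combination (SE 0.09, adjusted p = 0.0457). That result did not pass on leaving out vehicle replicate 1 (0.104) or 2 (0.174), combination replicate 1 (0.129) or combination replicate 3 (0.173), and in 4 other alternatives (0.0633 to 0.109). Rosiglitazone exceeded the combination for CEBPB 1.34-fold (log2 0.43, SE 0.09, adjusted p = 0.00237) and for CEBPD 1.16-fold (0.22, SE 0.06, adjusted p = 0.0232). The CEBPD difference was lost without combination replicate 1 or 3 or rosiglitazone replicate 1 or 2 (0.0557 to 0.0981), and in 2 other alternatives (0.0505 and 0.0997). With the replicate block it passed (SE 0.04, adjusted p = 0.000957). The combination was below dicoumarol for CEBPD by 0.25 (SE 0.06, adjusted p = 0.0421), which was lost without any of the dicoumarol libraries or without combination replicate 1 or 3 (0.0759 to 0.210), and in 3 other alternatives (0.0618 to 0.0905).

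The ratio of Cebpa to Cebpb within a library does not depend on the size factor, apart from the added 1. Its log2 value in 3T3-L1 was -2.99, -3.71 and -2.91 with vehicle, -1.85, -3.56 and -1.88 with dicoumarol and -1.25, -2.26 and -0.87 with magnolol. It was -0.86, -2.15 and -0.62 with the combination and -0.04, -0.45 and 0.28 with rosiglitazone. The mean stood above vehicle by 1.74 for magnolol, 1.99 for the combination and 3.13 for rosiglitazone, each with an exact permutation p of 0.10 (two-sided), the smallest that 3 against 3 libraries allow. Dicoumarol gave 0.77 (exact permutation p = 0.30). That test takes no account of the replicate numbers: within them the dicoumarol library stood above its vehicle library by 1.14, 0.15 and 1.03, and the other treatments also did so in 3 of 3 pairs. In DFAT the differences were 0.47, 0.90 and 0.61 for the same 3 treatments (each exact permutation p = 0.10) and -0.03 for dicoumarol (exact permutation p = 0.80). The combination had the largest of the 4 DFAT differences, with libraries at -2.78, -2.71 and -2.82 beside -2.90, -3.00 and -3.25 for rosiglitazone.

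Cebpg, the dimer partner, lies beside Cebpa on mouse chromosome 7, 62.7 kb apart on the opposite strand, and 79.1 kb apart on pig chromosome 6. In 3T3-L1 it was 2011, 1957 and 2221 with vehicle, 2863, 2236 and 3288 with the combination and 3486, 3146 and 4001 with rosiglitazone. All treated libraries of these 2 groups exceeded all vehicle libraries. It rose 1.71-fold with rosiglitazone (log2 0.78, SE 0.15, adjusted p = 0.000592). The combination gave 0.42 (SE 0.15, adjusted p = 0.120), which passed with the block (SE 0.07, adjusted p = 0.000822) and without combination replicate 2 (0.0337). Rosiglitazone exceeded the combination by 0.35 (SE 0.15, adjusted p = 0.101; with the block SE 0.07, adjusted p = 0.00168), and the combination exceeded dicoumarol by 0.27 (SE 0.15, adjusted p = 0.709; with the block SE 0.07, adjusted p = 0.0480). Pig CEBPG spanned 3023 to 3958 over all 15 libraries and passed in no comparison (adjusted p 0.528 to 0.981 against vehicle).

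**Figure D2:**
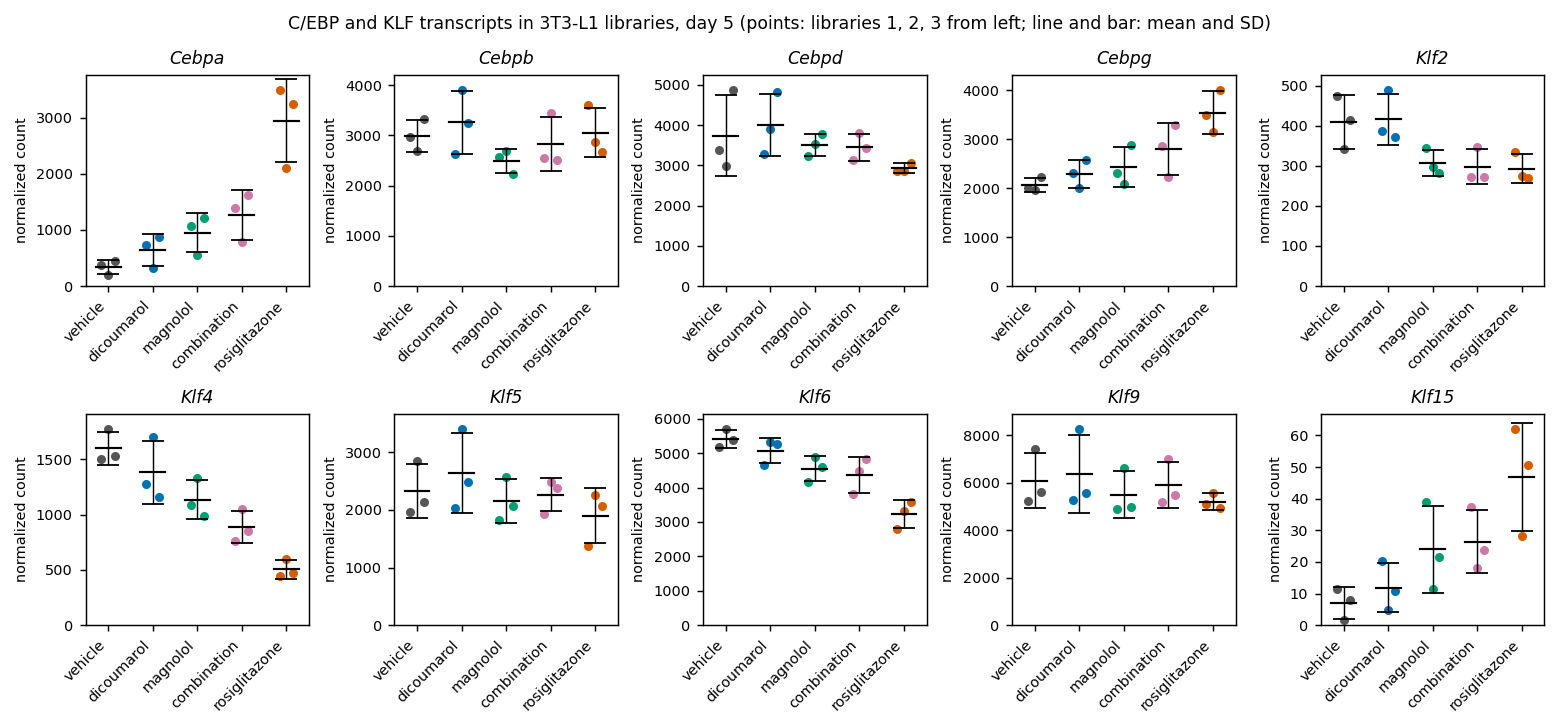
Normalized counts of the 10 members in each 3T3-L1 library by group, on linear axes from 0; points are libraries, lines the mean of 3 and bars the SD. Cebpa and Klf15 climb across the groups and Klf4 declines, from 1498 to 1767 with vehicle to 441 to 598 with rosiglitazone.

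Klf4, the early activator upstream of C/EBPβ, fell in 3T3-L1. Replicates 1, 2 and 3 held 1498, 1767 and 1526 normalized counts with vehicle and 1277, 1703 and 1161 with dicoumarol. They held 1081, 1330 and 987 with magnolol, 761, 1046 and 851 with the combination, and 441, 598 and 474 with rosiglitazone. The rosiglitazone libraries lay below every other library, and replicate 2 was the highest of each group. Klf4 fell by 1.67 with rosiglitazone (3.18-fold lower, SE 0.16, adjusted p = 1.55e-06) and by 0.86 with the combination (1.81-fold lower, SE 0.16, adjusted p = 0.00464). Rosiglitazone was below the combination by 0.81 (SE 0.16, adjusted p = 0.00431). Magnolol gave -0.50 (SE 0.16, adjusted p = 0.206), which passed with the block (SE 0.08, adjusted p = 0.000962), and dicoumarol -0.23 (SE 0.16, adjusted p = 1.00). The combination against dicoumarol gave -0.63 (SE 0.16, adjusted p = 0.173) and passed with the block (adjusted p = 0.000229).

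Pig KLF4 was higher, not lower, with rosiglitazone. It held 2488, 2122 and 2494 with vehicle, 2760, 2757 and 2997 with dicoumarol and 2590, 3130 and 2747 with rosiglitazone, groups above the vehicle libraries. Its rise with rosiglitazone was 1.19-fold (0.25, SE 0.08, adjusted p = 0.0483). It did not pass on leaving out vehicle replicate 1 (0.0578) or 2 (0.235), rosiglitazone replicate 2 (0.161) or rosiglitazone replicate 3 (0.0844), and in 3 other alternatives (0.0911 to 0.181). Dicoumarol gave 0.26 (SE 0.08, adjusted p = 0.122).

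KLF6, described as easing the repression of fat cell formation by DLK1, also moved in opposite directions. Mouse Klf6 held 5174, 5684 and 5383 with vehicle, 3806, 4492 and 4832 with the combination and 2793, 3326 and 3579 with rosiglitazone. These 3 groups did not overlap, and rosiglitazone was the lowest. Klf6 fell by 0.75 with rosiglitazone (1.68-fold lower, SE 0.11, adjusted p = 6.34e-05), while the combination gave -0.31 (SE 0.11, adjusted p = 0.122; with the block SE 0.07, adjusted p = 0.00523). Magnolol gave -0.25 (SE 0.11, adjusted p = 0.418; 0.0412 with the block). Rosiglitazone was below the combination by 0.44 (SE 0.11, adjusted p = 0.0126; with the block SE 0.07, adjusted p = 0.000208). In the main model that call was lost without combination replicate 3 (0.0627) or rosiglitazone replicate 1 (0.0719). It was also lost with only the 2 groups in the fit (0.0585).

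Pig KLF6 held 15721, 13124 and 16163 with vehicle, 16058, 13574 and 13434 with the combination and 21766, 19396 and 20762 with rosiglitazone. Every rosiglitazone library exceeded every other library of the table. KLF6 rose 1.38-fold over vehicle (log2 0.46, SE 0.10, adjusted p = 0.00451) and 1.44-fold over the combination (0.53, SE 0.10, adjusted p = 0.0013). With dicoumarol, magnolol and the combination its log2 fold change lay between -0.06 and 0.11 (adjusted p 0.752 to 0.992).

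KLF5, which acts with the early C/EBPs on the Pparg promoter, rose in DFAT cells. The vehicle libraries held 200, 170 and 194 normalized counts, and the rosiglitazone libraries 273, 321 and 335. The combination libraries held 256, 236 and 246, magnolol 292, 225 and 238, and dicoumarol 149, 156 and 243. KLF5 rose 1.64-fold with rosiglitazone (log2 0.71, SE 0.16, adjusted p = 0.00602). Magnolol (0.41, SE 0.16, adjusted p = 0.184) and the combination (0.39, SE 0.16, adjusted p = 0.142) did not pass, although neither overlapped vehicle. Against dicoumarol, both differences passed when dicoumarol replicate 3, its highest library, was left out (0.0143 for the combination, 0.0170 for magnolol), and neither passed with it (0.182 and 0.184). Mouse Klf5 was 1971, 2856 and 2142 with vehicle and 1371, 2262 and 2075 with rosiglitazone, which overlap (-0.30, SE 0.21, adjusted p = 0.266; with the block SE 0.09, adjusted p = 0.0111). Rosiglitazone less the combination gave -0.28 for Klf5 (SE 0.21, adjusted p = 0.367; with the block SE 0.09, adjusted p = 0.0286).

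Klf15, the late activator that also regulates Slc2a4, rose in 3T3-L1 from low counts. Its values were 11.6, 1.71 and 8.14 with vehicle, 20.3, 4.76 and 10.7 with dicoumarol, and 38.8, 11.6 and 21.5 with magnolol. They were 37.5, 18.0 and 23.8 with the combination and 61.9, 28.3 and 50.6 with rosiglitazone. Each library of the combination and rosiglitazone groups exceeded all vehicle libraries, and replicate 2 was the lowest in each group. Klf15 rose 6.73-fold with rosiglitazone (log2 2.75, SE 0.59, adjusted p = 0.00163). The combination gave 1.95 (SE 0.59, adjusted p = 0.0704; with the block SE 0.30, adjusted p = 0.000308) and passed without vehicle replicate 1 (0.0492), and magnolol gave 1.73 (SE 0.59, adjusted p = 0.257; 0.00215 with the block). The combination against dicoumarol gave 1.22 (SE 0.59, adjusted p = 0.639; with the block SE 0.30, adjusted p = 0.0321). At this depth the vehicle values rest on few reads, and a minimum mean of 50 removes Klf15 from the test.

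Pig KLF15 had 2552, 2669 and 1997 normalized counts with vehicle, 1752, 1859 and 1302 with the combination, 1821, 1844 and 1237 with magnolol, and 2049, 1981 and 1548 with rosiglitazone. Replicate 3 was the lowest of every group, and the combination and magnolol libraries lay below all vehicle libraries. KLF15 fell by 0.56 with the combination (1.47-fold lower, SE 0.17, adjusted p = 0.0384), which did not pass on leaving out vehicle replicate 1 (0.133) or 2 (0.125), combination replicate 1 (0.0578) or combination replicate 3 (0.183), and with no filter (0.122) or no variance trend (0.0996). Magnolol gave -0.57 (SE 0.17, adjusted p = 0.0631), which passed without vehicle replicate 3 (0.0411) and with only the 2 groups in the fit (0.0310). Rosiglitazone gave -0.37 (SE 0.17, adjusted p = 0.193), and lay above the combination by 0.19 (SE 0.17, adjusted p = 0.492). Between these 2 groups same-numbered libraries deviated together, and with the block the difference passed (SE 0.06, adjusted p = 0.0196). Against vehicle the block gave KLF15 as lower with the combination (SE 0.06, adjusted p = 1.91e-06) and magnolol (3.58e-06). It also passed as lower with rosiglitazone (0.000133) and dicoumarol (-0.26, 0.0101). Across all genes, same-numbered libraries of vehicle and rosiglitazone did not deviate together (lowest correlation -0.306).

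Klf2, the brake, and Klf9, a glucocorticoid-induced activator, passed in few comparisons. Mouse Klf2 was 476, 341 and 414 with vehicle and 335, 275 and 269 with rosiglitazone. Replicate 1 of rosiglitazone lay just under the lowest vehicle library and the other 2 further below. It fell by 0.48 with rosiglitazone (1.39-fold lower, SE 0.15, adjusted p = 0.0209; with the block SE 0.14, adjusted p = 0.00983). It did not pass on leaving out vehicle replicate 1 (0.0975) or 3 (0.0507), rosiglitazone replicate 2 (0.0566) or rosiglitazone replicate 3 (0.0723). With the combination Klf2 gave -0.46 (SE 0.15, adjusted p = 0.109; 0.0409 with the block). Pig KLF2 spanned 67.7 to 112 over all libraries and passed in no comparison. Mouse Klf9 spanned 4880 to 8245 and passed in none, except with the block for rosiglitazone (-0.21, SE 0.08, adjusted p = 0.0378).

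Pig KLF9 was 26473, 24729 and 25842 with vehicle and 21532, 24320 and 20492 with rosiglitazone, with no overlap between the groups. It fell by 0.22 (SE 0.06, adjusted p = 0.0317), which did not pass on leaving out vehicle replicate 1 (0.123) or 3 (0.0710), rosiglitazone replicate 1 (0.0909) or rosiglitazone replicate 3 (0.166). It was also lost with no filter (0.0516) and with only the 2 groups in the fit (0.190). Magnolol libraries (22407 to 23294) and combination libraries (22816 to 23308) also lay below all vehicle libraries. Their log2 changes of -0.17 and -0.15 did not pass.

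**Figure D3:**
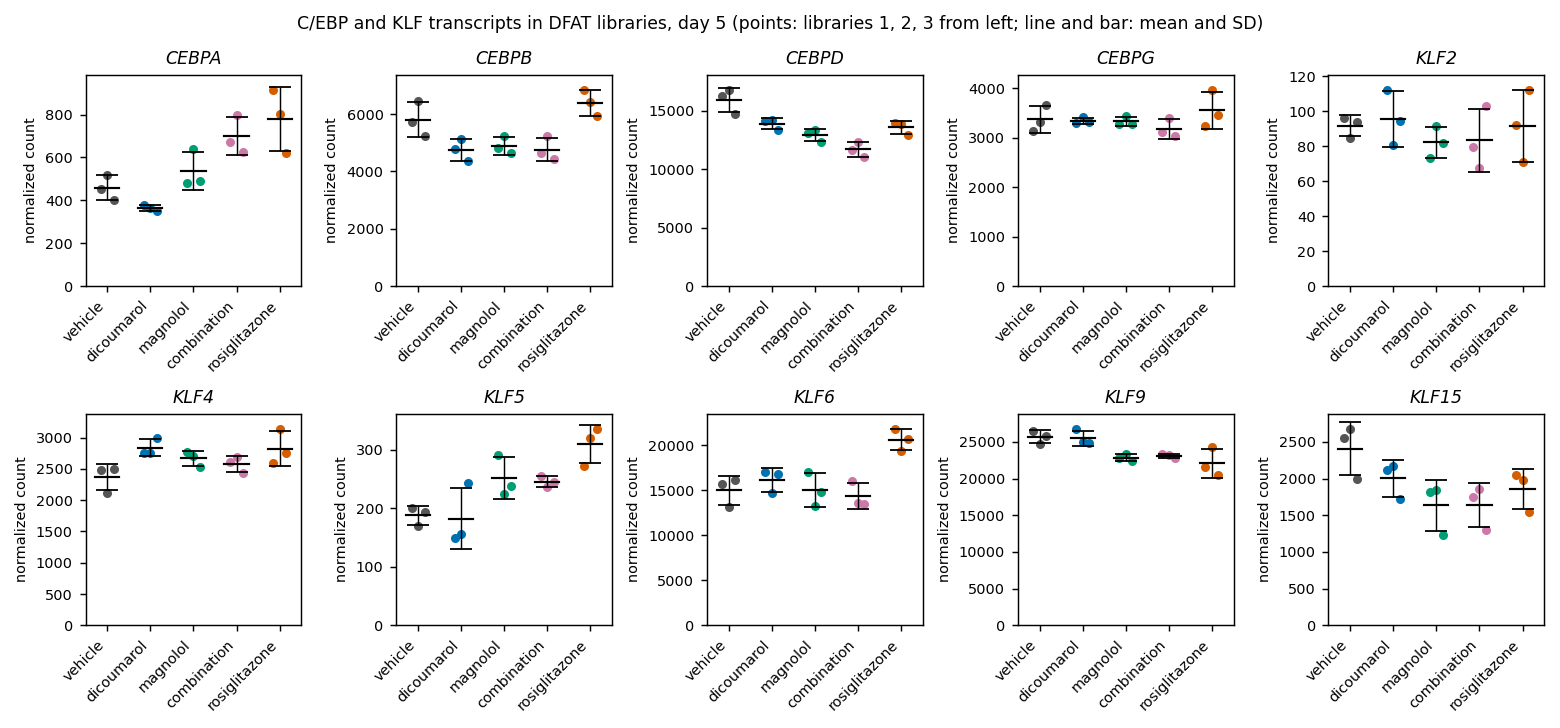
Normalized counts of the 10 members in each DFAT library by group, on linear axes from 0; points are libraries, lines the mean of 3 and bars the SD. CEBPD is highest with vehicle (14765 to 16762) and lowest with the combination (11066 to 12328), and KLF6 is highest with rosiglitazone (19396 to 21766).

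Counted over the members, rosiglitazone changed 6 of 10 in 3T3-L1, 3 higher and 3 lower, where 40.1% of all genes tested passed (20.3% higher, 19.9% lower). Libraries of the 2 groups did not overlap for 6 of 10 members, beside 45.6% of all genes. The combination changed 2 of 10 (1 higher, 1 lower) beside 5.22% of all genes (3.86% higher, 1.36% lower), and 5 did not overlap vehicle, beside 21.0%. Magnolol changed 0 of 10 beside 1.23% (1.07% higher, 0.153% lower), with 5 members at an unadjusted p under 0.05 and 5 not overlapping beside 15.4%. Dicoumarol changed 0 of 10 beside 0.0%, with 1 member at an unadjusted p under 0.05 and 0 not overlapping beside 5.83%. With the replicate block the counts were 9 for rosiglitazone (3 higher, 6 lower, beside 49.8% of genes), 6 for the combination (beside 13.5%), 4 for magnolol (beside 4.96%) and 1 for dicoumarol (beside 0.502%). With so few members, 6 of 10 beside 40.1% is no result about them as a group.

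In DFAT, rosiglitazone changed 6 of 10 members (4 higher, 2 lower) beside 10.8% of all genes (5.8% higher, 5.02% lower). The combination changed 4 (1 higher, 3 lower) beside 10.2% (6.11% higher, 4.06% lower). Magnolol changed 1, lower, beside 4.22% (2.96% higher, 1.27% lower). Dicoumarol changed 0 beside 1.94% (0.911% higher, 1.03% lower), with 4 members at an unadjusted p under 0.05. Libraries did not overlap vehicle for 6 members with rosiglitazone (beside 21.4% of genes), 6 with the combination (28.9%), 5 with magnolol (21.9%) and 4 with dicoumarol (19.3%). Of these 11 calls, 6 were lost on leaving out 1 library or another. The 5 that were not are CEBPA, KLF5 and KLF6 with rosiglitazone and CEBPD with magnolol and with the combination. The median log2 fold change of the 10 members lay between -0.12 and 0.11 in DFAT and between -0.26 and 0.11 in 3T3-L1, beside medians of -0.010 to 0.00075 over all genes.

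Treatments were also compared with each other. In 3T3-L1 the combination differed from dicoumarol in 0 of 10 members beside 0.0254% of genes, with 3 at an unadjusted p under 0.05. With the block 4 passed (Cebpa, Cebpg, Klf4 and Klf15) beside 3.62%. The combination against magnolol called 0 in 3T3-L1 (beside 0.0%, 1 at an unadjusted p under 0.05) and 0 in DFAT (beside 0.621%, 2 at an unadjusted p under 0.05), with and without the block. Magnolol against dicoumarol called 0 in 3T3-L1 (beside 0.0%, 2 at an unadjusted p under 0.05; 1 with the block, beside 0.502%) and 0 in DFAT (beside 1.57%, 3 at an unadjusted p under 0.05). The combination against dicoumarol called 2 in DFAT beside 2.35%, 1 higher (beside 2.0%) and 1 lower (beside 0.344%). Rosiglitazone differed from the combination in 3 members in 3T3-L1 beside 18.3%, 1 higher (9.53%) and 2 lower (8.78%), and in 5 with the block, beside 33.3%. In DFAT it differed in 3, all higher, beside 17.0% (8.24% higher, 8.79% lower), and in 4 with the block, beside 24.9%. In 3T3-L1 the libraries of rosiglitazone and the combination did not overlap for 4 members (beside 35.3% of genes), and those of the combination and magnolol for 0 (beside 8.99%).

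An interaction term asked whether dicoumarol and magnolol added up on the log2 scale, and 0 members passed in either system, beside 0.0% of genes in 3T3-L1 and 0.081% in DFAT. At an unadjusted p under 0.05 there were 0 in 3T3-L1 and 2 in DFAT. These were CEBPA, with an interaction of 0.71 (SE 0.20, adjusted p = 0.625), and KLF4, with -0.31 (SE 0.11, adjusted p = 0.886).

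**Figure D4:**
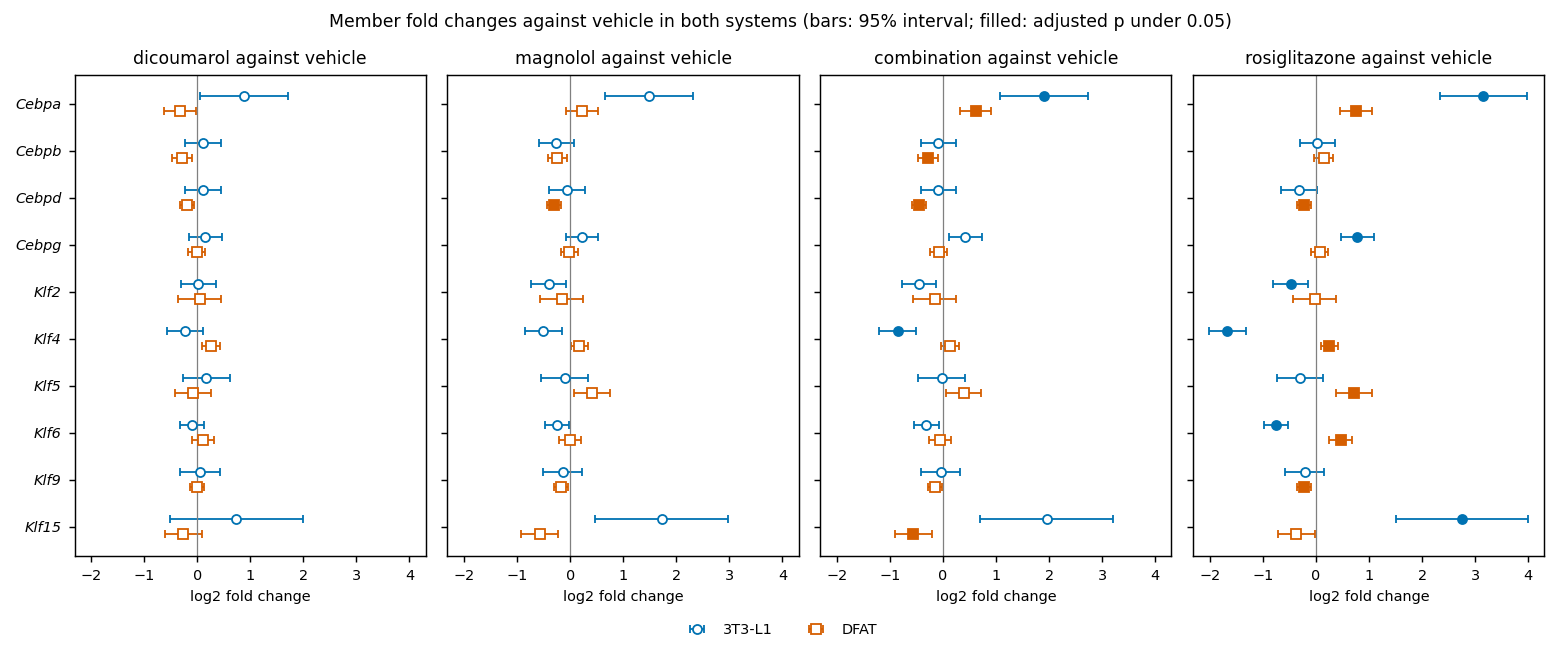
Log2 fold changes of the 10 members against vehicle for each treatment, 3T3-L1 as circles and DFAT as squares; bars are 95% intervals and filled symbols passed at an adjusted p under 0.05. With rosiglitazone, Klf4, Klf5 and Klf6 lie left of 0 in 3T3-L1 (-1.67, -0.30, -0.75) and right of it in DFAT (0.25, 0.71, 0.46).

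Between the systems, the difference of the log2 fold changes (3T3-L1 less DFAT) was tested over 9369 shared genes. With rosiglitazone it passed for 6 of 10 members, beside 38.8% of genes. These were Klf15 (3.12, SE 0.61, adjusted p = 0.000551), Cebpa (2.40, SE 0.41, adjusted p = 0.00013) and Cebpg (0.70, SE 0.16, adjusted p = 0.00158), with the higher change in 3T3-L1. The others were Klf4 (-1.92, SE 0.18, adjusted p = 2.73e-08), Klf6 (-1.21, SE 0.15, adjusted p = 1.54e-07) and Klf5 (-1.01, SE 0.26, adjusted p = 0.00276), with the higher change in DFAT. With the combination 4 passed beside 11.7%, with magnolol 2 beside 3.23% and with dicoumarol 0 beside 0.149% (3 at an unadjusted p under 0.05). For Cebpb the 95% interval of the rosiglitazone change ran from -0.31 to 0.35 for mouse cells and from -0.041 to 0.32 for pig cells, and their difference did not pass (adjusted p = 0.617). Species, cell origin, induction mix and serum differ together between the systems and cannot be told apart.

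Genes known to be bound or raised by C/EBPα in fat cells formed a list of 15, which holds 4 of the 5 fat cell markers given above. In 3T3-L1, 13 of 14 tested rose with rosiglitazone (median log2 fold change 4.25), 12 with the combination (2.62), 10 with magnolol (2.37) and 0 with dicoumarol (1.19), where the medians over all genes lay between -0.0089 and 0.00075 and 20.3%, 3.86%, 1.07% and 0.0% of all genes rose. The largest rises with rosiglitazone were those of Fabp4, a fatty acid carrier (5.68), Pck1, an enzyme of glyceroneogenesis (5.58), the hormone gene Adipoq (5.06) and the fatty acid receptor gene Cd36 (5.02). In DFAT, 10 of 13 rose with rosiglitazone (median 1.53) and with the combination (1.64), 9 with magnolol (1.08) and 4 with dicoumarol (0.54), beside 5.8%, 6.11%, 2.96% and 0.911% of all genes. PCK1 (7.33) and ADIPOQ (7.15) led with rosiglitazone, and ADIPOQ (6.29) and PCK1 (5.23) with the combination. INSR, the insulin receptor, fell with rosiglitazone in DFAT (-0.26) and is named after its value was seen. In DFAT with dicoumarol, where 4 list genes rose, the CEBPA change (-0.32) did not pass. Its dicoumarol libraries lay below all vehicle libraries, beside 19.3% of all genes whose libraries did not overlap in either direction. Whether C/EBPα acted on the genes of this list was not tested.

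Pparg, set beside Cebpa as the partner it is known to maintain, rose by 0.65 on the log2 scale with rosiglitazone (SE 0.13, adjusted p = 0.000716) and with the combination (SE 0.13, adjusted p = 0.00582) in 3T3-L1. Pig PPARG rose by 0.35 with magnolol, by 0.64 with their combination and by 0.48 with rosiglitazone. Activators of fat cell formation outside the members formed a list that includes Pparg itself. Of the 19 tested in 3T3-L1, 8 rose (beside 20.3% of all genes) and 5 fell (beside 19.9%) with rosiglitazone. Among them Nr1h3, the oxysterol receptor (2.15), Zfp423 (1.20) and Ebf2 (1.01) were higher, and Fosl2 (-1.26) was lower. With the combination 7 rose (beside 3.86%) and 0 fell, and with magnolol 4 rose (beside 1.07%). In DFAT 5 rose (beside 5.8%) and 2 fell (beside 5.02%) with rosiglitazone, led by PPARGC1A, a coactivator of mitochondrial genes (4.32), and 5 rose (beside 6.11%) and 4 fell (beside 4.06%) with the combination.

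Of the partners and inhibitors of C/EBP proteins, 9 were tested in 3T3-L1, where 3 fell (beside 19.9% of all genes) and 1 rose (beside 20.3%) with rosiglitazone, too few to read against those shares. Trib1 (-1.05) and Trib2 (-1.02), pseudokinases known to target C/EBPα for degradation, and Crebl2 (-0.74) fell, and Cebpz rose (0.29). In DFAT 4 of 9 rose with rosiglitazone (beside 5.8%), including TRIB3 (0.58), DDIT3, which encodes an inhibitory dimer partner (0.56), and NFIL3 (0.55), and TRIB2 fell (-0.44). With the combination 3 fell (beside 4.06%), TRIB1 (-0.41), TRIB2 (-0.38) and ATF4 (-0.27).

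Of the other KLF genes tested in 3T3-L1, 5 of 7 fell with rosiglitazone (median -0.50), beside 19.9% of all genes, among them Klf7 (-0.86) and Klf3 (-0.72), both described as repressing fat cell formation, Klf12 (-0.57) and Klf10 (-0.43), while Klf16 rose (0.39; named after its value was seen). In DFAT 2 of 8 rose with rosiglitazone (beside 5.8%), KLF11 (0.78) and KLF10 (0.38), and none fell. KLF7 rose with magnolol (0.50) and the combination (0.54). The difference between systems was not tested for these genes here.

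Brakes on fat cell formation fell in 9 of 15 cases with rosiglitazone in 3T3-L1 (median -0.50), beside 19.9% of all genes, led by Irf4 (-1.92), Runx1t1 (-1.23), Dlk1 (-1.14) and Zfp521 (-1.13), and Hes1 rose (0.49; named after its value was seen). With the combination 2 fell (beside 1.36%), Dlk1 (-0.66) and Runx1t1 (-0.57). In DFAT 2 of 13 fell with rosiglitazone (beside 5.02%), RUNX1T1 (-0.49) and ZNF521 (-0.43), and HES1 rose (0.44; named after its value was seen). There 2 fell with the combination (beside 4.06%), SOX9 (-0.47) and NR2F2 (-0.33).

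Glucocorticoid response genes bear on Klf9, Klf15 and Cebpd, which dexamethasone is known to raise. In 3T3-L1, 4 of 13 rose (beside 20.3% of all genes) and 5 fell (beside 19.9%) with rosiglitazone, among them Angptl4, a lipase inhibitor that PPARγ also raises (2.78), and Mt2 (0.81) higher and Errfi1 (-0.95) and Dusp1 (-0.57) lower. In DFAT 2 of 10 rose with the combination (beside 6.11%), PDK4 (1.50) and ANGPTL4 (0.54), and 2 fell (beside 4.06%), ERRFI1 (-0.89) and SGK1 (-0.82). Immediate early genes, which respond to growth signals within minutes, fell in 5 of 15 cases with the combination in DFAT (beside 4.06%), led by FOSB (-0.97) and NR4A1 (-0.85). There 2 fell with dicoumarol (beside 1.03%) and 1 with magnolol (beside 1.27%). The list medians in DFAT were -0.43 with the combination, -0.41 with dicoumarol and -0.13 with magnolol. In 3T3-L1 with rosiglitazone Myc rose (1.04) and Jun (-0.86) and Ier3 (-0.79) fell, 2 of 15 beside 19.9%.

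Genes most like a member were found by the smallest root mean square difference of centred log2 values over the 15 libraries of a table, for the 3 members that varied most in each. These are descriptions, and the points share the 5 groups and the size factors. Mouse Cebpa was nearest to Lipe, hormone-sensitive lipase (0.21), Kcnk3 (0.22) and Arxes2 (0.24), among 11569 candidates. Klf4 was nearest to Tinagl1 (0.13), Plk2 (0.13) and Adm (0.14). Klf15 was nearest to Fabp5 (0.43) and to Gm6166 (0.43) and Gm14328 (0.44), which the table lists as processed pseudogenes. Pig CEBPA was nearest to ALDOC (0.17), UNC119 (0.21) and GPR85 (0.21), among 9924 candidates. KLF5 was nearest to SFMBT1 (0.15), ENC1 (0.16) and TUBB6 (0.16), and KLF15 to ZNF219 (0.13), GPX1 (0.14) and DVL2 (0.15).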

How the data were processed

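RNA was measured by poly(A)-selected RNA-seq in 30 libraries. The deposited tables hold signal values that the authors made by dividing gene counts by DESeq2 size factors, 1 table for each species. The submitters' processing notes name bcl2fastq 2.19.1.403, STAR, DESeq2 and GRCm38, the last also for the pig libraries, without saying how each was used. Deposited mouse gene starts equalled those of the GRCm38 annotation (GENCODE) in only 2.18% of 24070 matched genes, so deposited coordinates are not printed; the sources used here give no pig build or annotation. All columns were mapped to samples (0 left unmapped). Low values were whole reads in 81.7% to 82.8% of cases in 3T3-L1 and 89.8% to 91.0% in DFAT (tolerance 0.02), so reads were not recovered and depth is an estimate. Mouse Cebpb and Cebpd were not whole reads in most libraries (3325.45 and 3791.71 in vehicle replicate 1), whereas Cebpa was. The 3T3-L1 ratio of Cebpa to Cebpb includes such values, and their source was not tested. Counting by strand is not stated, although the libraries mark strand.

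Genes with a mean of at least 10 (15723 mouse, 14819 pig) entered a limma model (version 3.58.1, R 4.3.3) of log2(value + 1) holding all 5 groups, with a variance trend. Tests were two-sided, with Benjamini-Hochberg adjustment at 0.05, and the code was first tested on simulated data. A gene rose, fell or was called where its adjusted p was under 0.05. The system difference was divided by the root of the summed squared SEs, with Welch-Satterthwaite degrees of freedom. The Cebpa to Cebpb ratio was tested by exact permutation. Alternatives were pseudocounts of 0.5 and 5, no filter, a minimum mean of 50, only the groups compared, no variance trend, quantile normalization, the replicate block, and leaving out each library.

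Same-numbered 3T3-L1 libraries deviated together (lowest correlation 0.106). The main model and the permutation test take no account of the numbers, and only the replicate block does. In DFAT every same-number correlation exceeded 0.1 only among magnolol, combination and rosiglitazone (lowest 0.118, 0.144 and 0.105). For DFAT vehicle and dicoumarol the correlations were 0.0948, 0.0747 and 0.193, beside a median of -0.0882 between different numbers. The labels do not say what a number shares.

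Named genes were all members, the 3 genes most like each of the 3 most variable members of a table, and per list and comparison up to 4 called genes with the largest changes. The members and lists were chosen with earlier results of these data known. Promoters came from RefSeq (GRCm38.p6).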

Additional observations from a re-analysis of the deposited data

Results flagged for a closer look

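The change against vehicle differed between 3T3-L1 and DFAT cells in 12 cases, each by a test of the difference itself (limma standard errors, adjusted over 9369 genes; n = 3 libraries a group). Each value is the 3T3-L1 less the DFAT log2 fold change. For Klf4, magnolol gave -0.68 (adjusted p = 0.0348), the combination -0.98 (0.000783) and rosiglitazone -1.92 (2.73e-08). In the 3 comparisons the mouse gene had values of -0.50, -0.86 and -1.67 and the pig gene 0.17, 0.13 and 0.25. For Klf15 magnolol gave 2.30 (0.0455), the combination 2.51 (0.0110) and rosiglitazone 3.12 (0.000551), from mouse values of 1.73, 1.95 and 2.75 and pig values of -0.57, -0.56 and -0.37. For Cebpa it was 1.29 with the combination (0.0470) and 2.40 with rosiglitazone (0.00013), where both systems had values above 0. For Cebpg it was 0.51 with the combination (0.0451) and 0.70 with rosiglitazone (0.00158). With rosiglitazone Klf5 gave -1.01 (0.00276) and Klf6 -1.21 (1.54e-07), and for both the mouse value lay below 0 and the pig value above it. Both magnolol differences and those of Cebpa and Cebpg with the combination did not pass with no variance trend (adjusted p 0.0829, 0.0860, 0.0961 and 0.0852).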

How the results depend on the processing

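Counts of called members are given first as reported. With the replicate block they became, in 3T3-L1, 1 in place of 0 for dicoumarol, 4 in place of 0 for magnolol, 6 in place of 2 for the combination, 4 in place of 0 for the combination against dicoumarol, 1 in place of 0 for magnolol against dicoumarol and 5 in place of 3 for rosiglitazone against the combination. In DFAT, no pair of groups holding vehicle or dicoumarol had every same-number correlation above 0.1. There the block gave 3 in place of 0 for dicoumarol (beside 4.52% of all genes) and 3 in place of 1 for magnolol (beside 9.18%). For magnolol against dicoumarol it gave 2 in place of 0 (beside 4.43%), and for dicoumarol 2 in place of 0 system differences (beside 1.91%). In DFAT all 6 libraries of a pair of groups correlated best with their own number for vehicle and dicoumarol and for dicoumarol and magnolol, and 0 of 6 did for vehicle and rosiglitazone (lowest correlation -0.306). Among DFAT fold changes against vehicle the block added calls, all lower, for CEBPB with dicoumarol (adjusted p = 0.00238) and magnolol (0.00531). It also added CEBPD with dicoumarol (0.00914) and KLF15 with dicoumarol, magnolol and rosiglitazone. With only the groups compared, DFAT counts were 2 for magnolol, 3 in place of 6 for rosiglitazone and 1 for magnolol against dicoumarol. With no filter, and likewise with no variance trend, they were 2 in place of 4 for the combination and 1 in place of 2 for the combination against dicoumarol. Quantile normalization gave 1 for the combination against dicoumarol and 1 for magnolol against dicoumarol. System differences with no variance trend numbered 0 in place of 2 for magnolol and 2 in place of 4 for the combination, and with quantile normalization 1 and 2. Pseudocounts of 0.5 and 5 and a minimum mean of 50 moved no count by more than 1.5 times; Klf15 in 3T3-L1 gives no value at that minimum. The cause of these changes was not tested.

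Leaving out 1 library gave 0 to 1 called members for magnolol, 1 to 3 for the combination, 5 to 7 for rosiglitazone and 1 to 3 for rosiglitazone against the combination in 3T3-L1, and 0 in its other comparisons. In DFAT it gave 0 for dicoumarol, 1 to 2 for magnolol, 2 to 3 for the combination, 3 to 5 for rosiglitazone, 1 to 2 for the combination against dicoumarol, 0 to 1 for magnolol against dicoumarol and 2 to 3 for rosiglitazone against the combination. The differences in the log2 ratio of Cebpa to Cebpb ranged over 0.48 to 1.34, 1.45 to 2.14, 1.70 to 2.46 and 2.88 to 3.32 in 3T3-L1 for dicoumarol, magnolol, the combination and rosiglitazone, and over -0.064 to 0.021, 0.39 to 0.53, 0.86 to 0.92 and 0.54 to 0.72 in DFAT. The DFAT dicoumarol ratio changed sign without dicoumarol replicate 2 (0.021).

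With 3 libraries a group, the median SE of a log2 fold change against vehicle was 0.15 for mouse and 0.099 for pig genes. The vehicle values of mouse Klf15 rest on 1.71 to 11.6 normalized counts. Smaller changes may be missed.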
